A study of Mus musculus with 8 samples.

Results

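A set of 40 genes of lipid synthesis, lipid uptake and lipid droplets was followed in mouse kidney, chosen by symbol, and all 40 had a row in a table of 30153 gene identifiers. They comprised 4 regulators, 6 genes of fatty acid synthesis, 8 of desaturation and elongation, 9 of triglyceride assembly, 8 of droplet coats and lipolysis, and 5 of lipid uptake. The animals were of the C57/BL6 strain and overexpressed the human angiotensin receptor type 1 from its haplotype II (Hap-II). The series describes them as hypertensive, and every animal was fed a western diet. Whole kidney RNA came from 4 animals labelled adult and 4 labelled aged, 1 library per animal, and the question was how age changes these genes on this background. The labels give neither ages in months nor sex, and no group on another diet or without the transgene was analysed here, so nothing below concerns the effect of the diet or the receptor itself.

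Cells make fatty acids from cytosolic acetyl-CoA through acetyl-CoA carboxylase and fatty acid synthase, then lengthen and desaturate them and join them to glycerol as triglyceride. SREBP-1 and ChREBP, the products of Srebf1 and Mlxipl, switch on this programme with insulin and sugar. Triglyceride is kept in droplets coated by perilipins and is released by a lipase series that runs from Pnpla2 through Lipe to Mgll. Kidney tubules burn fatty acids as their main fuel and take them up through carriers such as CD36, and droplets build up in tubules when supply exceeds use.

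Values are TPM, a transcript abundance scaled by length and by library total that can be compared between genes, and read depth is unknown. The 40 genes together held 0.230% of the TPM scale in adult replicate 1 and between 0.0702% and 0.173% in the other 7 libraries. Mean levels over all libraries were at least 100 TPM for 2 genes, at least 10 TPM for 26 including those, between 1 and 10 TPM for 11, and under 1 TPM for 3. Apoe, which encodes the ligand that lipoprotein receptors bind, led with 290 TPM, followed by Me1, malic enzyme, a source of NADPH, with 143 TPM, Scd1, the main stearoyl-CoA desaturase, with 87.7 TPM, and the acyltransferase Agpat3 with 79.3 TPM. The fatty acid synthase and acetyl-CoA carboxylase genes were low: Fasn averaged 3.22 TPM, Acaca 2.06 TPM and Acacb 1.90 TPM. Pparg, the fat cell regulator (0.676 TPM), Plin4 (0.301 TPM) and Gpam, the mitochondrial glycerol-3-phosphate acyltransferase (0.144 TPM), did not reach a mean of 1 TPM and were not tested, which left 37 genes. Gpam was listed at 0 in adult replicate 2 and in all aged libraries. The oxidation enzyme Eci1 was listed at no more than 0.00361 TPM in any library, so a listed 0 need not mean absence. Acaca and Me1 share 31.7% and 28.65% of their 31-base words with an annotated copy (Gm5182 and Gm7049), and their levels are uncertain for that reason.

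Libraries stood apart in a way the labels do not name. The Y-linked genes Ddx3y, Kdm5d, Eif2s3y and Uty, which only males carry, summed to between 0.485 and 2.30 TPM in replicates 1 and 2 of both ages and to between 34.7 and 50.6 TPM in replicates 3 and 4 of both ages. The former 4 are called Y-low and the latter 4 Y-high below, with a dividing line at 10 TPM. These are no groups of the study, they are balanced over age, and anything else that went with replicate number cannot be told apart from them. Kap, an androgen-regulated kidney transcript, held between 0.878% and 2.12% of the TPM scale in Y-low libraries and between 5.17% and 7.15% in Y-high ones. Kidney markers were present: proximal tubule markers, Kap among them, summed to between 11698 and 73617 TPM and podocyte markers to between 42.0 and 156 TPM. Kap made up most of the proximal tubule sum in every library, so that range mainly follows Kap. Mitochondrial transcripts held between 19.6% and 26.1% in adult and between 26.8% and 46.9% in aged libraries. Adult replicate 1 had the highest value of all libraries for 25 of the 40 genes, and aged replicate 2 the highest among the aged for 26. In log2 deviation per doubling of transcript length these were the libraries with the largest tilt towards long transcripts (0.0412 and 0.0556, the others between -0.0821 and 0.0363). Aged replicate 4 had a tilt of 0.0363 and the highest value for 5 genes. Aged replicate 3 had a tilt of 0.0208 and the lowest value for 20 genes. Such extremes were not counted over all genes, so these counts cannot be read as a trait of the lipid genes. Because TPM share a fixed total, a rise of a few very abundant transcripts lowers all others, and differences are read against the median of all genes.

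**Figure D1:**
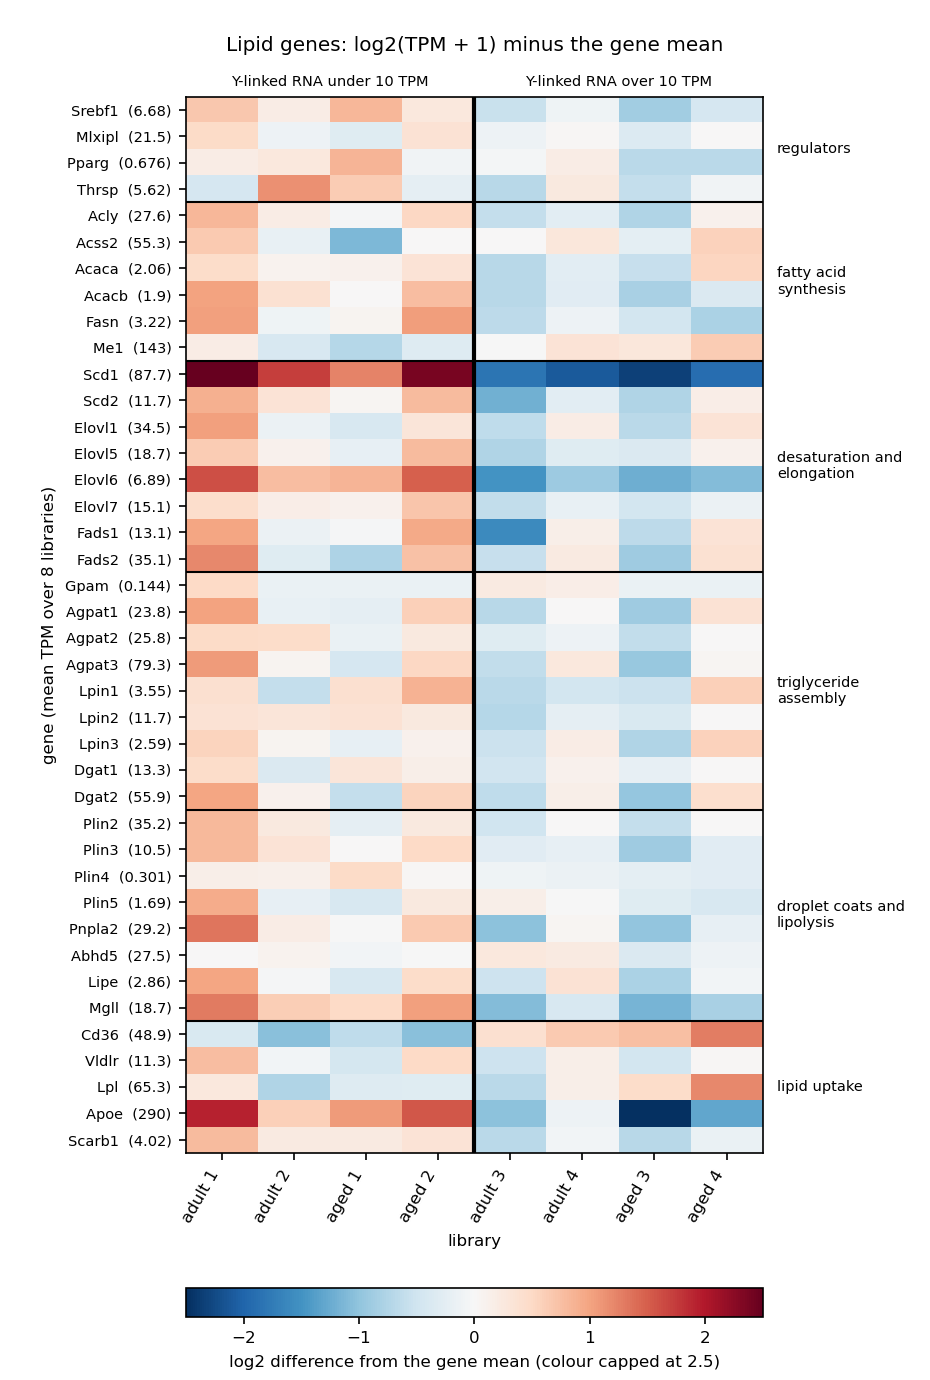
Heat map of log2(TPM + 1) of each of the 40 genes minus its mean over the 8 libraries, with genes in rows by role (mean TPM in brackets) and libraries in columns, the 4 Y-low ones left of the line and the 4 Y-high ones right of it. Scd1, Elovl6, Mgll and Apoe are high in the Y-low libraries (colour stops at 2.5), Cd36 is high in the Y-high ones, and adult replicate 1 is high for most rows.

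None of the lipid genes differed by age past the threshold. Of the 37 tested, 0 had an adjusted p under 0.05 by limma and 0 had an unadjusted p under 0.05, against 0.0% and 3.39% of all 11796 genes tested. The 37 differences, aged minus adult on the log2(TPM + 1) scale, ran from -0.69 (Apoe) to 0.66 (Lpin1) with a median of -0.14, where all genes had a median of -0.11. They were negative for 26 and positive for 11 genes, while 65.0% of all genes were negative. With size factors in place of the deposited scaling the members' median was -0.05, with 22 negative. This balance of signs turned with single libraries. Without adult replicate 1 the median was 0.10 with 12 negative, and without aged replicate 3 it was 0.06 with 15 negative. Without adult replicate 3 or aged replicate 2 it was -0.38 or -0.34. The medians of all genes in these settings were 0.04, 0.04, -0.24 and -0.23. With mitochondrial genes removed the members' median was 0.09, where all genes had 0.14. Of the 37 genes 29 changed sign in at least 1 of the 22 settings run. Standard errors were large for some genes, 1.25 for Scd1 and 0.76 for Elovl6, and 0.31 and 0.26 with the Y-linked class as a term in the fit. In that fit 0 of the 37 again had an unadjusted p under 0.05 by limma, where 998 of all 11796 genes did. In whole tissue, fewer cells of a type and less RNA per cell cannot be told apart.

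The 7 tested droplet coat and lipolysis genes had lower means in the aged group as deposited, where 65.0% of all genes had negative differences. Of the 7, 0 passed by limma or had an unadjusted p under 0.05. They had differences between -0.43 and -0.23, with a median of -0.30 (-0.20 with size factors). Mgll and Pnpla2 changed sign in some settings, to 0.17 and 0.13 without adult replicate 1, and the other 5 did not. With mitochondrial genes removed Plin2, Plin3, Lipe and Plin5 had differences of -0.006, -0.08, -0.24 and -0.31, where all genes had a median of 0.14. Abhd5 encodes the co-activator that turns on the triglyceride lipase of Pnpla2. It read 27.6, 29.1, 32.8 and 32.2 TPM in adult replicates 1 to 4 and 25.8, 26.9, 20.9 and 24.7 TPM in aged replicates 1 to 4. Every aged library lay below every adult one, and Abhd5 was the only 1 of the 40 genes whose age groups did not overlap, against 2.46% of all genes tested (2.11% with the aged lower). Its means were 30.4 ± 2.46 and 24.6 ± 2.64 TPM (SD, n = 4 each), a log2 difference of -0.30 (SE 0.22, limma unadjusted p = 0.197, adjusted p = 1.00). It was -0.10 within the Y-low and -0.50 within the Y-high libraries, and -0.02 with mitochondrial genes removed.

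Plin5, a perilipin that ties droplets to mitochondria, had 3.90, 1.22, 1.86 and 1.55 TPM in the adults and 0.939, 2.04, 1.07 and 0.943 TPM in the aged (-0.43, SE 0.31). Adult replicate 1 was the highest and the groups overlapped. Plin2, the ubiquitous droplet coat protein and the most abundant of this role, had 60.1, 39.7, 23.6 and 33.9 TPM in the adults and 28.5, 40.1, 21.9 and 33.8 TPM in the aged (-0.29, SE 0.31). Plin3, a coat protein of nascent droplets, had 17.8, 12.7, 7.89 and 8.38 TPM against 9.91, 14.3, 4.82 and 7.85 TPM (-0.33, SE 0.36). Lipe, hormone-sensitive lipase, had 6.14, 2.53, 1.50 and 3.61 TPM against 1.70, 3.91, 1.06 and 2.40 TPM (-0.41, SE 0.38). In these 4 genes the age groups overlapped throughout and the largest adult value came from adult replicate 1. Without that library the differences of Plin5, Plin2, Plin3 and Lipe were -0.20, -0.06, -0.12 and -0.15.

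Among the triglyceride assembly genes Lpin1 had the largest difference and the smallest unadjusted p of all 37. Lpin1 encodes lipin 1, the phosphatase that makes diacylglycerol for triglyceride. In replicates 1 to 4 its level was 4.56, 1.80, 1.64 and 2.04 TPM in the adults and 4.54, 6.63, 1.90 and 5.32 TPM in the aged. Adult replicates 2 to 4 had at most 2.04 TPM and aged replicates 1, 2 and 4 at least 4.54 TPM, while adult replicate 1 and aged replicate 3 crossed over. The means were 2.51 ± 1.38 and 4.60 ± 1.99 TPM (SD, n = 4 each), a log2 difference of 0.66 (SE 0.36, limma unadjusted p = 0.0971, adjusted p = 1.00). The difference was 0.72 in Y-low and 0.60 in Y-high libraries, and 0.95 with mitochondrial genes removed. With size factors it was 0.73 (SE 0.21, limma unadjusted p = 0.00769, adjusted p = 0.652). In that setting 810 of 11702 genes had an unadjusted p under 0.05 by limma. Leaving out adult replicate 1 gave 0.90, and leaving out aged replicate 3 gave 0.95. Its relatives Lpin2 and Lpin3 had differences of 0.12 and -0.14.

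Agpat3 and Agpat2, which add the second acyl chain to the glycerol backbone, had differences of -0.40 (SE 0.39) and -0.25 (SE 0.29). Agpat3, the most abundant of its role, had 154, 76.0, 47.2 and 87.8 TPM in the adults and 53.6, 104, 37.2 and 74.6 TPM in the aged. Agpat2 had 35.2, 34.9, 20.0 and 22.8 TPM against 22.3, 29.8, 16.1 and 25.4 TPM. The age groups of both overlapped, and without adult replicate 1 the differences were -0.11 and -0.14. Dgat1 and Dgat2, which complete triglyceride, had adult means of 12.8 and 61.2 TPM and aged means of 13.7 and 50.6 TPM.

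Lpl, the lipase that frees fatty acids from circulating triglyceride at the vessel wall, was the only uptake gene among the 10 with the smallest p. It read 71.1, 34.9, 36.6 and 65.4 TPM in the adults and 47.5, 47.8, 81.5 and 137 TPM in the aged (0.52, SE 0.38, limma unadjusted p = 0.202). The 2 highest values were those of aged replicates 3 and 4, both Y-high, and the age groups overlapped. Without aged replicate 4 the difference was 0.20. Within the Y-high libraries the difference was 1.10 (SE 0.39), and within the Y-low ones -0.06 (SE 0.41). The difference between those values was tested as an interaction and was 1.16 (SE 0.61, limma unadjusted p = 0.0890, adjusted p = 1.00). Apoe split likewise, with -1.43 (SE 0.43) within the Y-high and 0.05 (SE 0.46) within the Y-low libraries, and an interaction of -1.48 (SE 0.80, limma unadjusted p = 0.0978, adjusted p = 1.00). Within the Y-high libraries these 2 genes had an unadjusted p under 0.05 by limma, where 5.8% of all genes did, and their adjusted p were 0.440 for Lpl and 0.250 for Apoe. Gpihbp1, the capillary anchor of this lipase, had means of 25.4 TPM (adult) and 17.6 TPM (aged).

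In fatty acid synthesis Acss2, which makes acetyl-CoA from acetate, had 82.2, 45.9, 52.7 and 63.4 TPM in the adults and 23.4, 52.5, 44.1 and 78.2 TPM in the aged (-0.38, SE 0.35). The lowest value, in aged replicate 1, lay below all others, and the groups overlapped. The difference was -0.79 in Y-low and 0.02 in Y-high libraries, -0.07 without aged replicate 1 and -0.64 without aged replicate 4. Me1 had 156, 105, 137 and 174 TPM against 83.7, 110, 167 and 213 TPM, with the same mean of 143 TPM in both age groups. Among regulators Mlxipl had 29.7, 19.3, 19.2 and 21.6 TPM against 17.0, 27.5, 16.4 and 21.1 TPM, an overlap as well. The 8 desaturation and elongation genes had age differences between -0.31 and 0.30.

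**Figure D2:**
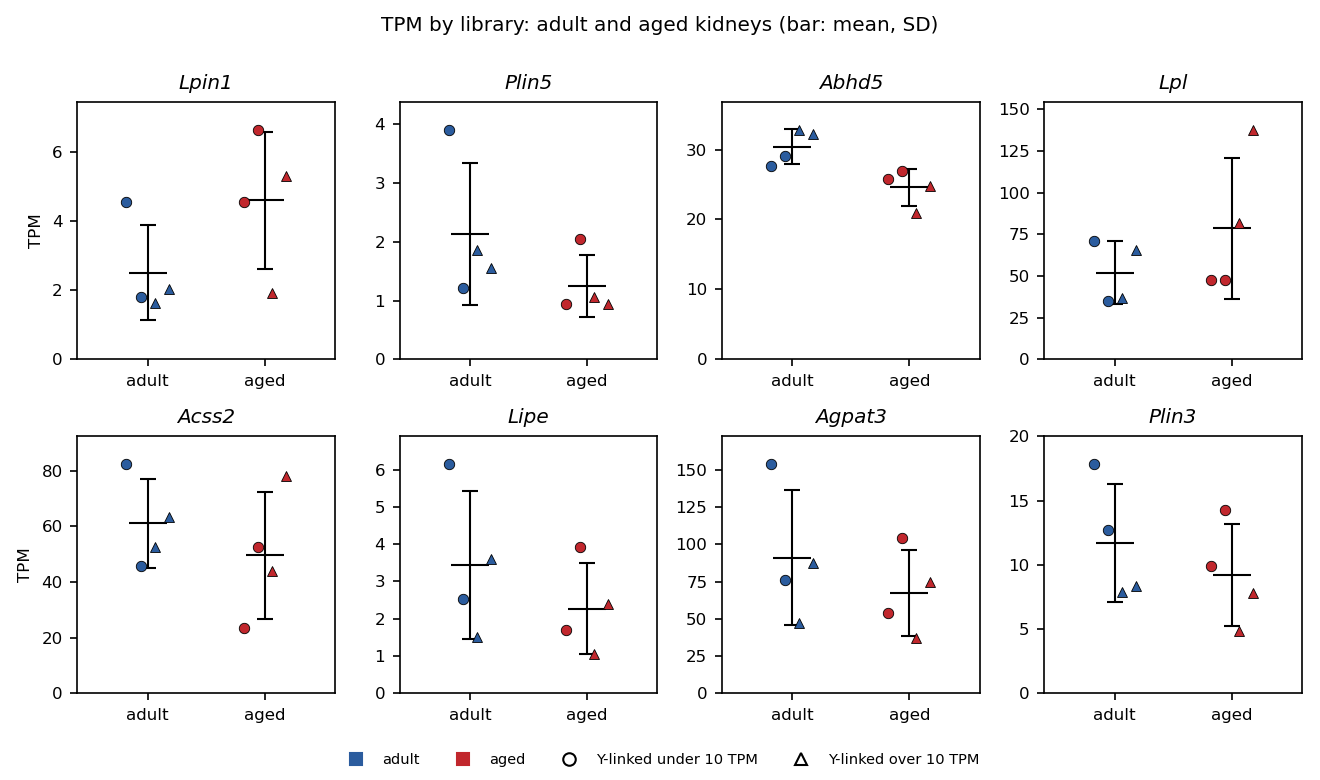
TPM by library (points, circles Y-low and triangles Y-high) with mean and SD (bars) in adult and aged kidneys for the 8 genes with the smallest unadjusted p for age. Abhd5 is the 1 panel in which no aged point reaches an adult one, and the highest adult point is that of adult replicate 1 in every panel but that of Abhd5.

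A much larger difference ran between the Y-low and Y-high libraries within both ages. In a fit with age as a term, 8 of the 37 genes passed an adjusted p of 0.05 by limma, 7 lower and 1 higher in the Y-high libraries. Over all genes 12.4% passed, 11.3% lower and 1.13% higher, so the count of lower members is to be read against a background in which most genes were lower. All genes had a median of -0.46, and the 37 lipid genes one of -0.56. Differences were negative for 33 of the 37 and for 89.2% of all genes. Size factors brought the median of all genes to 0.01 and that of the members to -0.11. With them 7 lipid genes passed, 4 lower and 3 higher, where 5.44% of all genes passed, 2.46% lower and 2.98% higher. The same 5 genes passed in each of the 19 settings run: Scd1, Elovl6, Mgll and Apoe, lower in the Y-high libraries, and Cd36, higher. The age by class interaction gave 0 calls and 0 unadjusted p under 0.05 among the 37 genes by limma, against 0.0339% and 2.08% of all genes.

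The sequences just upstream of the start sites of 3 of these genes are shown because Mgll and Apoe were lower and Cd36 higher in the Y-high libraries in every setting run. Windows of 250 bases before RefSeq starts (GRCm38.p6) were found for 33 of the 40 genes, and not for Scd1, Scd2, Fads1, Dgat1, Dgat2, Lpl and Scarb1. Where a gene had several starts, the one nearest the annotated gene start is shown, 5′ to 3′ on the gene's strand. Capitals mark matches, on either strand, to the E-box CACGTG, the CCAAT box, the GC box GGGCGG, the androgen receptor half-site TGTTCT or the STAT site TTCNNNGAA. A sterol regulatory element of 10 bases and a nuclear receptor direct repeat of 13 bases were searched as well.
Mgll upstream window, chr6:88724162-88724411, plus strand: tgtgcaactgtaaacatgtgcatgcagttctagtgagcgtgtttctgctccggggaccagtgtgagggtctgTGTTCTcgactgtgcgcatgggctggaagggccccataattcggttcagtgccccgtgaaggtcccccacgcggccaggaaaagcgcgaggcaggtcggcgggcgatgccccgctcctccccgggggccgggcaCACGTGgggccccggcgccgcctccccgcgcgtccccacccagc
Apoe upstream window, chr7:19699189-19699438, minus strand: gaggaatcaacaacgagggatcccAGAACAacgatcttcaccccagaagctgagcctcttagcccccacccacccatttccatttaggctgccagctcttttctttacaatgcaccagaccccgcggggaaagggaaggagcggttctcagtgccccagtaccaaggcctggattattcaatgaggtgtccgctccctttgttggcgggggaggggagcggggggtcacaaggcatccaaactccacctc
Cd36 upstream window, chr5:17835897-17836146, minus strand: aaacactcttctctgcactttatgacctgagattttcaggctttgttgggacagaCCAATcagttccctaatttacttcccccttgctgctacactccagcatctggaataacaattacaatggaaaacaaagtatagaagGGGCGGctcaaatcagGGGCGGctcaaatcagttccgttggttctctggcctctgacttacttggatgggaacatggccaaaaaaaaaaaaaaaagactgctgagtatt
In these windows Mgll held an E-box and a half-site, Apoe a half-site, Cd36 a CCAAT box and a pair of GC boxes, and the Elovl6 window, not printed, none of the 7 motifs. The Cd36 window lies within the span of its longer annotated transcripts. Among the 33 genes 5 held the E-box in some window (9.80% of their 51 windows, against 6.02% of all 32851), among them Mlxipl and Elovl5. The half-site was found in 15.7% of member windows and 16.1% of all, the CCAAT box in 41.2% and 33.85%, the GC box in 54.9% and 32.7%, and the STAT site in 1.96% and 7.02%. The sterol element and the direct repeat were in no member window and in 0.0731% and 0.0335% of all. A match is a stretch of letters and was not tested as a binding site.

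Scd1, at chr19:44394455-44407879, puts the double bond into palmitate and stearate. It had 267 and 122 TPM in the adult Y-low libraries against 9.49 and 7.67 TPM in the adult Y-high ones, and 87.7 and 192 TPM against 6.40 and 9.03 TPM in aged kidneys. The lowest Y-low value was many times the highest Y-high value at either age. The means were 167 ± 79.4 and 8.15 ± 1.40 TPM (SD, n = 4 each), 20.5-fold apart, with a log2 difference of -4.09 (SE 0.31, limma adjusted p = 9.30e-05, -3.55 with size factors). Scd2, the isoform typical of brain and young tissue, had 15.8 ± 4.41 and 7.51 ± 3.40 TPM, which did not pass (-1.03, SE 0.32, limma adjusted p = 0.0610). Scd1 made up between 89.0% and 92.9% of the summed Scd1 and Scd2 level in Y-low and between 43.4% and 70.4% in Y-high libraries. Their transcripts share 5.18% of the 31-base words of Scd1.

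Elovl6, at chr3:129532355-129638495, lengthens palmitate to stearate, the step before Scd1. It had 16.3 and 8.59 TPM against 0.994 and 2.00 TPM in adults, and 9.19 and 14.9 TPM against 1.42 and 1.67 TPM in aged animals, Y-low values given before Y-high ones. The classes were well apart at both ages, with means of 12.3 ± 3.94 and 1.52 ± 0.426 TPM (SD, n = 4 each), 8.06-fold apart, and a log2 difference of -2.36 (SE 0.26, limma adjusted p = 0.000762, -1.92 with size factors). The other elongases differed less. Elovl7 had 20.0 and 16.4 TPM against 9.12 and 12.5 TPM in adults, and 15.7 and 24.1 TPM against 10.2 and 12.9 TPM in aged animals, without overlap (-0.71, SE 0.21, limma adjusted p = 0.0544, and 0.0443 without aged replicate 1). Elovl1, Elovl5, Fads1 and Fads2, of very long chain elongation and polyunsaturated fatty acid synthesis, had differences between -0.88 and -0.40. None of them passed as deposited, and Elovl5 passed in 1 of the 19 settings run (limma adjusted p = 0.0440). The Elovl1 difference was 0.16 with size factors.

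Mgll, at chr6:88724412-88828360, encodes monoacylglycerol lipase, the last step of triglyceride breakdown. Its level was 39.1 and 24.0 TPM against 6.67 and 11.4 TPM in adults, and 21.9 and 31.9 TPM against 6.23 and 8.31 TPM in aged animals. Every Y-low value lay above every Y-high value, with means of 29.2 ± 7.87 and 8.14 ± 2.32 TPM (SD, n = 4 each) and a log2 difference of -1.72 (SE 0.25, limma adjusted p = 0.00371, -1.19 with size factors). The lipases before it in the series, Pnpla2 and Lipe, had differences of -1.09 (SE 0.35) and -0.51 (SE 0.33) and did not pass. Abhd5 had a difference of -0.01 (SE 0.18), above the median of all genes, and turned positive with size factors (0.54).

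Apoe, at chr7:19696109-19699188, had 716 and 285 TPM against 92.2 and 171 TPM in adults, and 395 and 553 TPM against 27.8 and 76.1 TPM in aged animals. The classes did not overlap, with means of 487 ± 188 and 91.8 ± 59.6 TPM (SD, n = 4 each) and a log2 difference of -2.58 (SE 0.45, limma adjusted p = 0.00901, -2.01 with size factors). Apoe made up between 24.2% and 34.9% of the 40 genes' summed TPM in Y-low and between 3.96% and 15.8% in Y-high libraries. Macrophages express Apoe, and the summed level of 10 macrophage markers was between 195 and 359 TPM in Y-low and between 78.4 and 160 TPM in Y-high libraries. All 9 tested markers had negative differences, where 89.2% of all genes did, and 3 passed, where 11.3% of all genes passed as lower. With size factors all 9 were negative (median -0.45), where 48.1% of all genes were, and 0 passed. The part of macrophages in the Apoe difference was not tested.

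Cd36, at chr5:17781690-17888801, encodes the fatty acid and oxidized lipoprotein carrier. It had 31.6 and 19.7 TPM in Y-low against 55.0 and 65.5 TPM in Y-high adult libraries, and 26.5 and 19.5 TPM against 70.9 and 103 TPM in aged ones. All 4 Y-high values exceeded all 4 Y-low values, with means of 73.5 ± 20.5 and 24.3 ± 5.84 TPM (SD, n = 4 each), 3.02-fold apart, and a log2 difference of 1.55 (SE 0.24, limma adjusted p = 0.00576, 2.10 with size factors). Me1 and Lpl had differences of 0.62 (SE 0.23, limma adjusted p = 0.0884) and 0.56 (SE 0.34, limma adjusted p = 0.230), and passed with size factors (1.19 and 1.12, limma adjusted p = 0.00436 and 0.0452).

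Srebf1, Acacb and Plin3 passed as deposited but not with size factors. Srebf1 had 10.4 and 7.13 TPM against 3.81 and 5.59 TPM in adults, and 11.7 and 7.56 TPM against 2.93 and 4.31 TPM in aged animals (-0.98, SE 0.24, limma adjusted p = 0.0327, and 0.243 with size factors). Acacb, the carboxylase isoform whose malonyl-CoA restrains fatty acid entry into mitochondria, had 4.32 and 2.42 TPM against 0.622 and 1.18 TPM in adults, and 1.64 and 3.49 TPM against 0.504 and 1.04 TPM in aged animals (-1.08, SE 0.26, limma adjusted p = 0.0321, and 0.0571 with size factors). Plin3 (-0.83, SE 0.22) had a limma adjusted p of 0.0408, and of 0.227 with size factors. None of the 3 overlapped between the classes. Each also lost its call without adult replicate 1, adult replicate 3, aged replicate 2 or aged replicate 3, with limma adjusted p between 0.0773 and 0.135. Acacb lost it without adult replicate 4 (0.0583), Srebf1 without aged replicate 1 (0.0542), and Plin3 without adult replicate 2 (0.0559) or adult replicate 4 (0.0778). Scarb1, the HDL receptor, had 7.27 and 4.59 TPM against 1.98 and 3.52 TPM in adults, and 4.53 and 5.05 TPM against 1.96 and 3.27 TPM in aged animals, and did not pass (-0.80, SE 0.24, limma adjusted p = 0.0545, and 0.0426 without aged replicate 4). Acly, the lyase that frees cytosolic acetyl-CoA from citrate, the acyltransferase gene Agpat1 and the lipoprotein receptor gene Vldlr had differences of -0.75, -0.59 and -0.39 (0.13 for Vldlr with size factors) and did not pass. In all, 11 of the 37 tested genes lay lower in every Y-high than in every Y-low library, among them Fasn and Lpin2, and 1 lay higher, against 21.3% and 1.35% of all genes tested. Untested Plin4 was lower without overlap too. Of the 8 tested triglyceride assembly genes 0 passed by limma, 2 had an unadjusted p under 0.05, where 38.9% of all genes did, and their median of -0.53 moved to -0.01 with size factors.

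**Figure D3:**
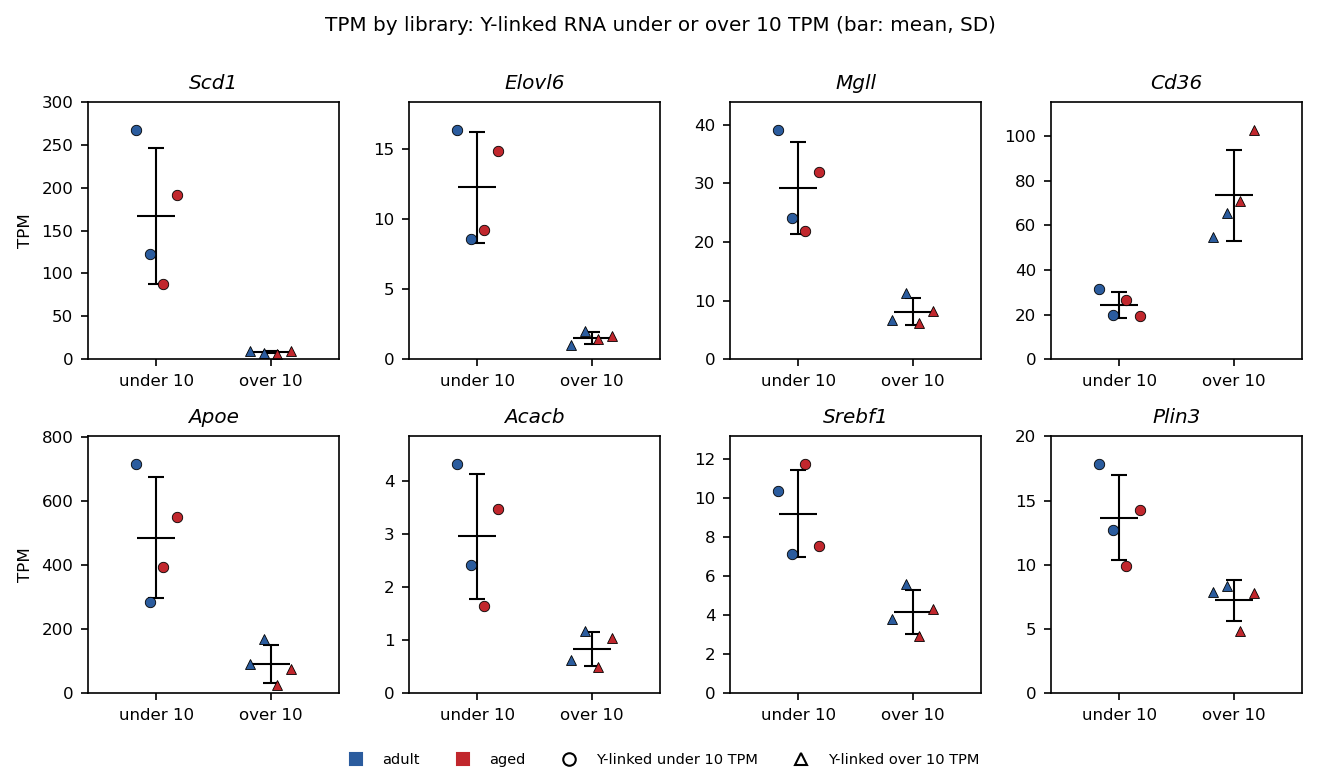
TPM by library for the 8 genes that passed between Y-low (circles) and Y-high (triangles) libraries, with adult points in blue, aged points in red, and mean and SD as bars. In every panel the 4 Y-high points lie below the 4 Y-low points, except for Cd36, where they lie above.

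**Figure D4:**
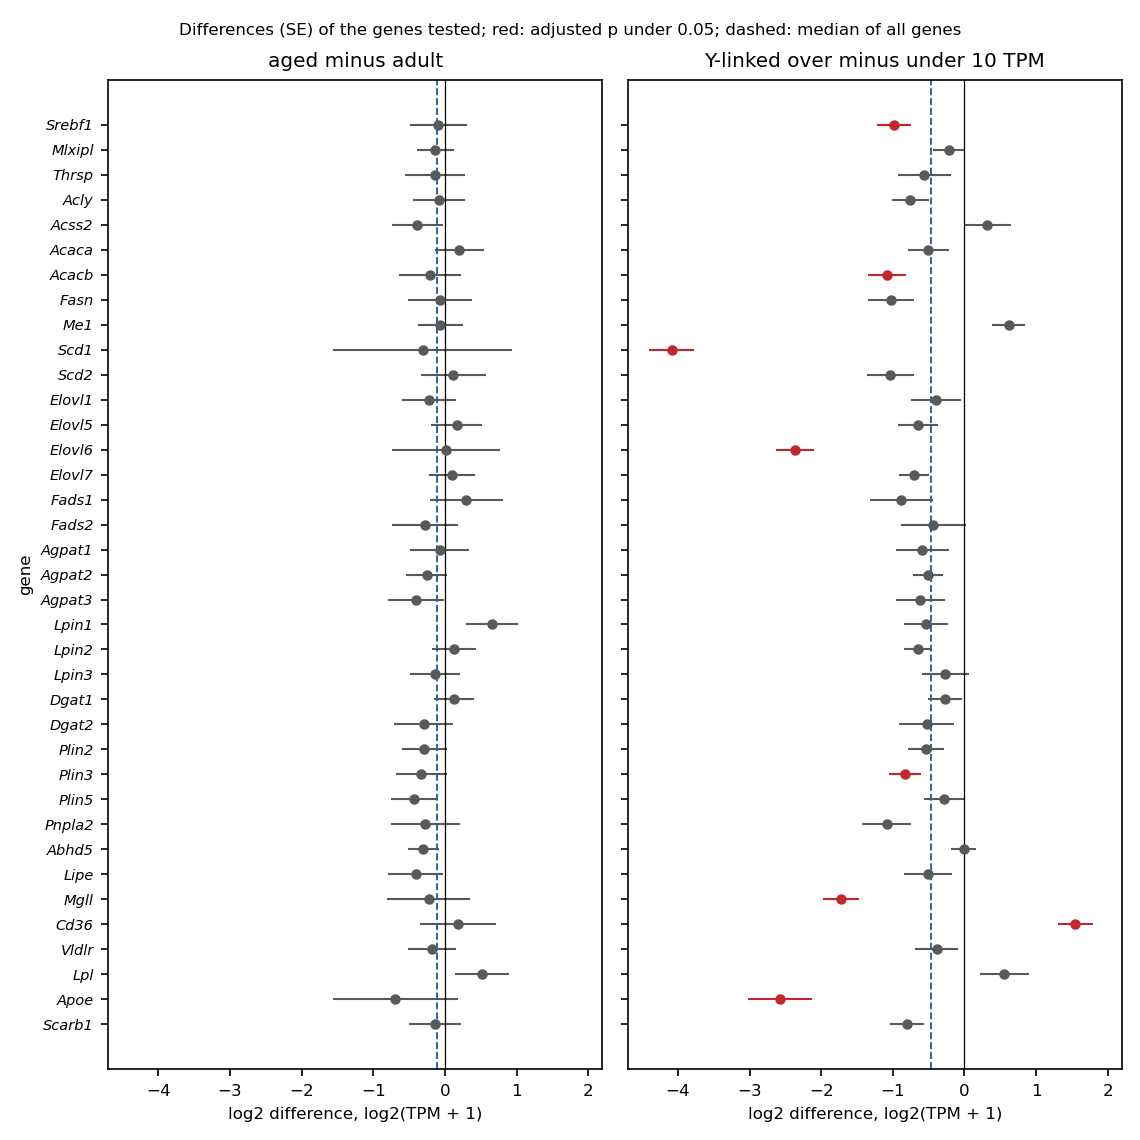
Log2 differences with standard errors of the 37 tested genes, aged minus adult on the left and Y-high minus Y-low on the right, with the median of all genes as a dashed line and genes of adjusted p under 0.05 in red. Nothing is red on the left, where the median of all genes is -0.11, and Scd1 at -4.09 and Cd36 at 1.55 are the extremes on the right.

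Other genes of lipid handling, 61 in a list of related synthesis, uptake and droplet genes, were read beside these 40. Of 54 tested, 0 passed for age by limma and 0 had an unadjusted p under 0.05, where 3.39% of all genes did. Between the classes 8 passed as lower and 2 as higher in Y-high libraries, where 11.3% and 1.13% of all genes did. With size factors 6 passed as lower and 3 as higher, where 2.46% and 2.98% of all genes did. Ces1f, a carboxylesterase, averaged 42.9 TPM in Y-low and 354 TPM in Y-high libraries (3.04, SE 0.26, limma adjusted p = 0.000158). Mogat1, a monoacylglycerol acyltransferase, averaged 26.5 and 94.1 TPM (1.79, SE 0.22). Fabp1, a fatty acid binding protein, averaged 57.4 and 5.18 TPM (-3.42, SE 0.37). Gpat3, a glycerol-3-phosphate acyltransferase, averaged 14.3 and 3.22 TPM (-1.82, SE 0.24). Acsl1, which activates fatty acids with coenzyme A, averaged 127 and 22.5 TPM (-2.41, SE 0.36).

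Fatty acid oxidation genes, the fate of lipid that is not stored, were lower in Y-high libraries for 12 of 28 tested and higher for 0 (6 and 0 with size factors), where 11.3% of all genes were lower and 2.46% with size factors. Their median was -0.64 (-0.08 with size factors). Cyp4a14, a fatty acid hydroxylase, averaged 193 and 4.10 TPM (-5.39, SE 0.40, limma adjusted p = 7.41e-05), and its relative Cyp4a10 averaged 182 and 37.2 TPM (-2.26, SE 0.37). For age 0 of the 28 passed by limma and 3 had an unadjusted p under 0.05, where 3.39% of all genes did. Age differences were negative for 25 of the 28, where 65.0% of all genes were negative. With size factors 24 were negative, where 52.6% of all genes were.

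Markers of other cell types were read beside these genes. Of 11 adipocyte markers outside the 40 genes, 4 reached a mean of 1 TPM. Lep, Plin1 and Adrb3 stayed under 1 TPM in every library. Plin1 was listed at 0 in every library but aged replicate 1 (0.0882 TPM), and Adipoq at 0 in aged replicates 1 and 2. The highest Adipoq value was 3.49 TPM, in adult replicate 2. Adult replicate 2 also had the highest Thrsp, a lipogenic nuclear protein gene abundant in fat (12.3 TPM, against 2.76 to 8.39 TPM in the other libraries). The 11 adipocyte markers summed to between 111 and 268 TPM in adult and between 100.4 and 238 TPM in aged libraries. Of these sums Fabp4, also made by endothelium, was between 98.5 and 243 TPM. The highest aged sum was that of aged replicate 1, which also had the highest Pparg (1.86 TPM) and Plin4 (0.777 TPM). Of the 4 tested markers 0 passed by limma for age, class or interaction. An unadjusted p under 0.05 was found for 1, 2 and 2 of them, where 3.39%, 38.9% and 2.08% of all genes had one. Interaction differences were positive for all 4, with a median of 1.77. Without the 4 genes that are adipocyte markers themselves, the medians were -0.14 for age and -0.59 for the Y-linked class, over 35 genes. Thick ascending limb markers summed to between 923 and 1999 TPM in Y-low and between 242 and 501 TPM in Y-high libraries. All 5 passed as lower in Y-high libraries, 4 of them with size factors. Over all genes 11.3% passed as lower, and 2.46% with size factors. Of 11 distal tubule and collecting duct markers 4 passed as lower in Y-high libraries, and 0 passed with size factors. All 11 had negative differences in both settings (medians -0.90 and -0.41), where 89.2% and 48.1% of all genes did. Of 13 proximal tubule markers 4 passed as higher in Y-high libraries, Slc7a13, Kap, Cyp2e1 and Acsm2, and 1, Gatm, as lower. With size factors the same 4 passed and Gatm did not. Over all genes 1.13% passed as higher, and 2.98% with size factors. Differences were negative for 8 of the 13, with a median of -0.78, where all genes had -0.46 (-0.21 and 0.01 with size factors). Red cell markers summed to between 933 and 14661 TPM in Y-low and between 1116 and 2768 TPM in Y-high libraries. Of these 5 markers 2 passed as lower, and 0 with size factors, where 11.3% and 2.46% of all genes did. Endothelial markers summed to between 248 and 308 TPM in Y-low and between 125 and 248 TPM in Y-high libraries. Of these 10 markers 0 passed in either setting. The part of cell composition in the differences between the classes was not tested.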

How the data were processed

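Kidney RNA of 4 adult and 4 aged animals was measured by stranded polyadenylated RNA sequencing, per the labels' protocols. The deposited values are TPM made by the authors. Kallisto, DESeq2 and GRCm38 appear in the submitters' processing notes without versions, roles or order, and the annotation is not given in the sources used here. TPM keep no depth, so no counting interval was computed. All columns matched a sample title.

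Identifiers were matched to symbols (29732 of 30153, 98.6%). Differences were fitted over all genes with a mean of at least 1 TPM on log2(TPM + 1), which understates low genes, with limma 3.58.1 (R 4.3.3, trend on intensity), tested two-sided and adjusted by Benjamini-Hochberg over 11796 genes at 0.05. The script was tested on simulated data. A count model does not suit TPM. Gene positions are from GENCODE M21. Alternatives were pseudocounts of 0.1 and 5, no filter, a filter at 5 TPM, median-of-ratios size factors, quantiles made equal, mitochondrial genes removed, limma without trend or robust, the class or replicate number as a term, each class alone and each library left out. A length trend removal was added after seeing the data.

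Values in every library are given for members past the threshold, without overlap between ages, among the 10 smallest p of either comparison, or highest in their role. The members, lists and the Y-linked split were chosen with earlier results of these data known. Replicates are separate animals per the series' design text.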

Additional observations from a re-analysis of the deposited data

Results flagged for a closer look

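Of 80 groups (40 genes in adult and in aged kidneys), 2 held a library whose gap to the next exceeded Dixon's 95% critical value for 4 samples, where chance flags about 1 in 20. Lpin1 was 4.56 TPM in adult replicate 1, far above the other 3 adult libraries (1.64 to 2.04 TPM). Without it the age difference of Lpin1 was 0.90 instead of 0.66. Plin5 was 2.04 TPM in aged replicate 2, above the other aged libraries (0.939 to 1.07 TPM). Without it the age difference of Plin5 was -0.59 instead of -0.43.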

How the results depend on the processing

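For age, limma called 0 genes as deposited, 0 to 2 with 1 library left out, 3 within the Y-low and 60 within the Y-high libraries, and 0 lipid genes in every setting. Of the 37 tested lipid genes 29 changed the sign of their age difference in at least 1 setting: 14 with mitochondrial genes removed, 14 without adult replicate 1, 13 without aged replicate 3, 10 within Y-low libraries and at most 7 in any other. Among age differences the text prints, Lpl was -0.0645, Apoe 0.0486 and Lpin2 -0.0290 within Y-low libraries. Acss2 was 0.0230 and Lpin3 0.0891 within Y-high libraries. Agpat2 was 0.0251, Lpin3 0.0532 and Mgll 0.0394 with mitochondrial genes removed. With 1 library left out Apoe ran from -1.32 to 0.0995, Lpin2 from -0.0905 to 0.270, Lpin3 from -0.359 to 0.0862, Scd1 from -1.15 to 0.585, Fads1 from -0.181 to 0.678 and Mgll from -0.625 to 0.170, and the median over the lipid genes from -0.379 to 0.0988. In the Y-linked class 11 of the 37 changed sign in some setting, all 11 with size factors. Of those the text prints, Abhd5 was 0.541 with size factors, 0.429 with quantile normalization, 0.167 with mitochondrial genes removed, 0.00580 with the length trend removed, and -0.0634 to 0.0773 with 1 library left out. Vldlr was 0.133 and Elovl1 0.156 with size factors, and 0.111 and 0.0379 with quantile normalization. For the Y-linked class the 1464 genes called became 762 with no filter, 637 with size factors, 636 with quantile normalization, 718 with mitochondrial genes removed and 400 to 2048 with 1 library left out (558 without adult replicate 1, 918 without adult 2, 443 without adult 3, 811 without adult 4, 401 without aged 2, 400 without aged 3). The 8 lipid genes called became 5 with no filter or with mitochondrial genes removed, and 5 to 14 with 1 library left out, 5 without adult 1, adult 3, aged 2 or aged 3 and 14 without aged 4. Scd2 passed without aged 1 or aged 4 and with the length trend removed, and Pnpla2 and Acly without aged 4. Elovl7 passed in 3 of the 19 settings, Fasn in 2, and Elovl5, Lpin2 and Agpat2 in 1 each. The median of -0.56 over the lipid genes became -0.11 with size factors and -0.12 with quantile normalization. The 4 genes of the interaction became 0 with no filter, 2 with size factors and 2 to 16 with 1 library left out. With the replicate block 0 genes and 0 lipid genes were called for age, and 916 genes had an unadjusted p under 0.05. Same-numbered adult and aged libraries had correlations of 0.038, 0.181, 0.486 and 0.415 in their deviations. Adult 1 correlated best with aged 2 (0.572) and adult 2 with aged 1 (0.408), while adult 3 and adult 4 correlated best with their own numbers. Replicate number goes with the Y-linked class, so these values cannot decide whether the numbers pair the samples. The causes were not tested, and as TPM keep no depth, what depth limits is unknown.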
